A study of Mus musculus with 2 samples.

Results

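The 93 genes described here are the nuclear genes of oxidative phosphorylation: every gene row of a mouse single-cell data set whose name starts with Nduf, Uqcr, Atp5, Cox4, Cox5, Cox6, Cox7 or Cox8, or is Sdha, Sdhb, Sdhc or Sdhd, out of 32285 gene rows. The rule reads names and no measured value, though it was set with earlier results of these data known. By name, 38 belong to complex I, 4 to complex II, 8 to complex III, 18 to complex IV and 17 to complex V, and 8 are Ndufaf assembly factors of complex I. Names holding -ps were left out, which removed 1 gene, Ndufb1-ps, which stood at 181 counts per 1000000 gene UMIs (CPM) among control cells and 232 in the other library. Atpif1, the inhibitor of the ATP synthase, falls outside the names (269 and 290 CPM). A UMI is a molecular tag that marks 1 captured RNA molecule.

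The cells were CD45.2+ Kit+ bone marrow cells of mice, taken 10 weeks after transplantation, in 1 control library and 1 library labelled Utx-deleted, called the Utx-labelled library from here on. CD45.2 is a variant of a leukocyte surface protein that is widely used to tell transplanted from host cells, and Kit is the stem cell factor receptor of stem and progenitor cells. Utx, also called Kdm6a, is a histone H3 lysine demethylase carried by the MLL3 and MLL4 complexes, and the comparison asks how Kit+ cells differ when it is deleted. The labels give no strain, age at transplantation, sex, host, promoter of a recombinase or inducing agent, nor how many mice gave the cells. Kdm6a itself stood at 110 CPM (control) and 103 CPM (Utx-labelled library). The deposited counts do not say which exon was removed, and a read from the 3′ end that lies outside a deleted part checks nothing, so the label could not be checked here.

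Oxidative phosphorylation runs along the inner mitochondrial membrane. Complexes I and II take electrons from NADH and succinate, complex III and cytochrome c pass them on, complex IV hands them to oxygen, and complex V, the ATP synthase, uses the proton gradient that results. Complex II is coded in the nucleus alone, whereas complexes I, III, IV and V also hold subunits read from the mitochondrial genome, so both genomes have to supply parts. Quiescent blood stem cells are known for leaning on glycolysis, progenitors for active mitochondria, and mature neutrophils for few mitochondria and glycolytic energy.

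Each group is 1 library, so no difference below has a replicate check and none was tested. Intervals are 95% intervals of the counts (exact Poisson for a share, conditional binomial for a ratio) and cover counting error only. Each library carried 2 antibody hashtags. The labels do not say what a hashtag marked, so the hashtag 1 and hashtag 2 cells show the spread inside a library and are not replicates. The control library held 7827 barcodes and 122130256 gene UMIs and the other 7883 barcodes and 129736034. After filtering, 7011 and 7206 cells remained, with a median of 12367 and 11816.5 UMIs per cell. The libraries shared 17 barcodes.

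Cells were sorted into 7 ranges by the UMIs of marker genes per 10000 gene UMIs of the cell. Hlf and Mecom mark stem cells, and the range they set held 310 control cells and 76 cells of the other library. Flt3, Dntt, Cpa3, Gata2, Cd34 and Kit set a range of early progenitors (183 and 62 cells, the Flt3/Cd34 range). Elane, Prtn3 and Mpo, enzymes of the first granules, set a range of neutrophil progenitors (688 and 717 cells, the Elane range). Fcnb and Chil3 set the range between those and the Ltf cells (197 and 84 cells). Ltf, a protein of later granules, set immature neutrophils, which were split by Top2a and Mki67 into cycling (1721 and 1579 cells) and non-cycling ones (2139 and 2565). Retnlg set the latest neutrophils (1166 and 1293 cells). These are ranges on a scale and not cell types: 0.638% to 4.48% of kept cells lay within 25% of 1 of the 6 main minimums. Among the 10 genes highest by fold in a range, the Fcnb/Chil3 range of the Utx-labelled library held 2 markers of the Elane range against 1 of its own. The Flt3/Cd34 range held none of its own in either library, and 1 of basophils or mast cells (Ms4a2) among control cells. The Elane range held 1 of its own among control cells. In the other library it held none of its own and 1 of T or NK cells (Nkg7). Both Ltf ranges held none of their own in either library, so the ranges are called by their genes and not as stages.

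Of the 93 genes, 89 had at least 100 UMIs over both libraries and 4 had under 20. No gene fell between those limits. The 10 genes with most UMIs held 30.4% of all UMIs of the 93: Ndufa4, Cox8a, Cox4i1, Cox5a, Atp5h, Atp5l, Atp5g2, Cox6c, Atp5f1 and Atp5b. Ndufa4 carries a complex I name although its protein is now counted as a part of complex IV, and it is kept under its name here.

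In the control library the 93 genes together took 1.42% of all gene UMIs in the Hlf/Mecom range (hashtag 1 cells 1.42%, hashtag 2 cells 1.43%) and 1.46% in the Flt3/Cd34 range. Their share was highest in the Elane range, at 2.03% (2.02% and 2.04%), and then lower in every following range. It was 1.40% in the Fcnb/Chil3 range, 1.06% and 0.847% in the cycling and non-cycling Ltf ranges, and 0.640% in the Retnlg range (0.643% and 0.622%). The library labelled Utx-deleted had the same order from the Elane range onward, with 2.20%, 1.75%, 1.15%, 0.959% and 0.759%. Its Flt3/Cd34 range, at 1.45%, lay below its Hlf/Mecom range, at 1.65%.

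The share in the Retnlg range was 3.17-fold lower than in the Elane range in the control library (log2 ratio −1.66, interval −1.68 to −1.65) and 2.90-fold lower in the other (log2 ratio −1.54). The mean number of UMIs of the 93 genes per cell was 628 in the Elane range of both libraries and 39.9 and 59.6 in the Retnlg range. Total UMIs per cell were lower there too, with medians of 5846 and 7339 against 30168.5 and 26794. A share moves with the rest of the transcriptome: granule and S100 genes took 26.2% and 31.9% of all UMIs in the Retnlg range and 2.63% and 3.12% in the Elane range. With those 14 genes left out of the total, the log2 ratio of the summed share was −1.26 in the control library and −1.03 in the other.

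**Figure D1:**
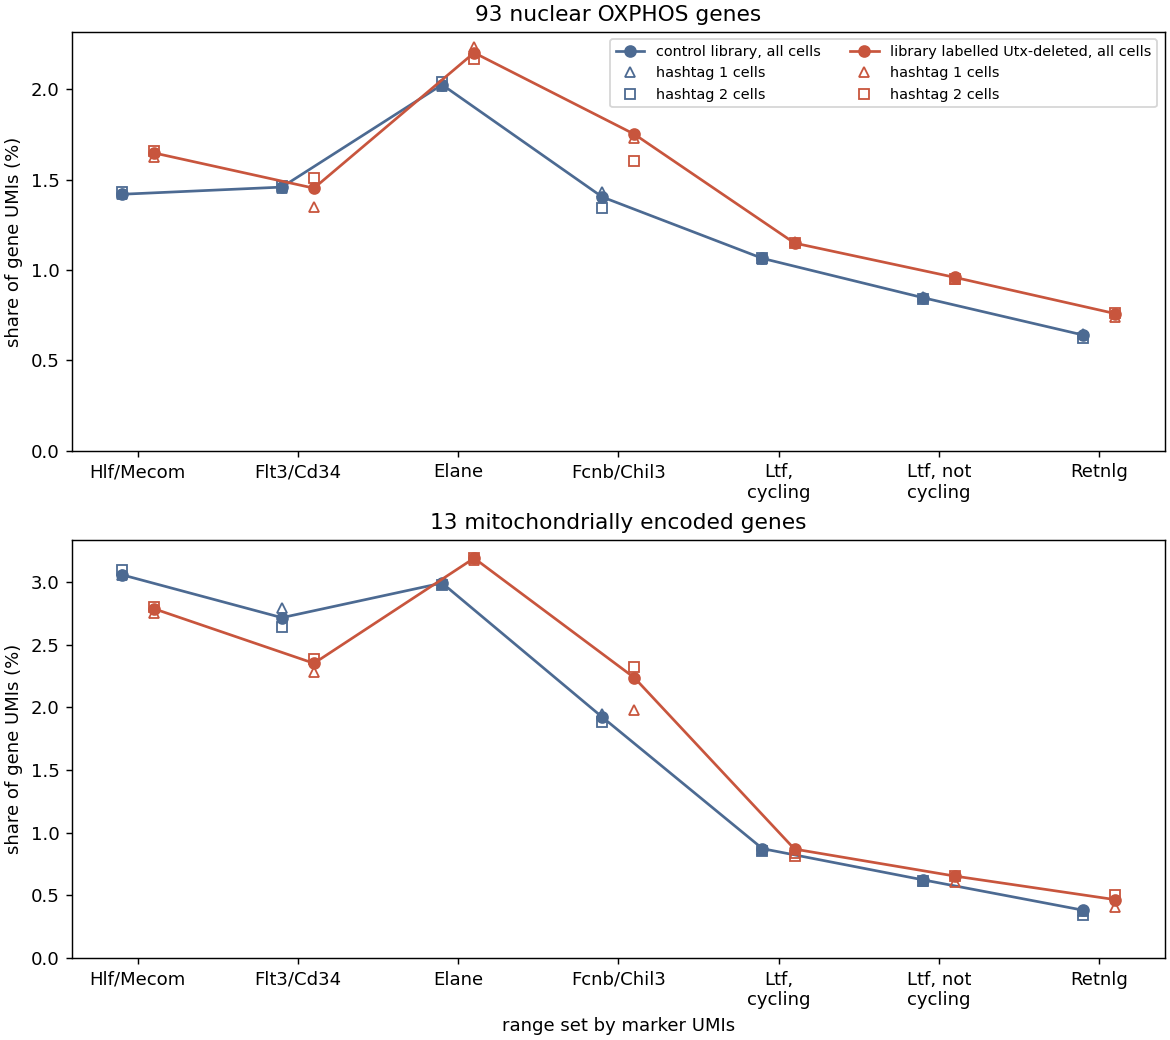
Share of gene UMIs in percent taken by the 93 nuclear genes (top) and the 13 mitochondrially encoded genes (bottom), by marker range. Filled points joined by lines are all cells of a library and open symbols are its hashtag 1 and hashtag 2 cells. Among the 7 ranges the nuclear share is highest in the Elane range (2.03% and 2.20%). The mitochondrially encoded share is lower still at the end, at 0.381% and 0.465% in the Retnlg range.

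The 13 mitochondrially encoded genes followed another course. In the control library their share was 3.06% in the Hlf/Mecom range, 2.99% in the Elane range and 0.381% in the Retnlg range, so it was 7.85-fold lower at the end than in the Elane range, against 3.17-fold for the nuclear genes. There were 2.15 mitochondrially encoded UMIs for each nuclear one in the Hlf/Mecom range, 1.48 in the Elane range and 0.596 in the Retnlg range. The library labelled Utx-deleted ran from 1.69 to 1.45 and 0.613. In both libraries the balance between the genomes moved toward the nuclear transcripts from the first range to the last. Both shares come from 3′ tags of 1 library, and the cell filter on the mitochondrial share caps this ratio.

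Of the 93 genes, 86 had enough UMIs to compare the Retnlg with the Elane range. In the control library 85 of them had a lower CPM in the Retnlg range and 73 were past 2-fold lower, where 53.5% of all 10365 genes compared were past 2-fold lower. In the Utx-labelled library, 86 of 86 were lower and 66 were past 2-fold, where the figure for all genes was 52.2%. The median log2 ratio of the 86 was −1.69 and −1.56, beside −1.24 and −1.13 over all genes. The count past 2-fold depends on the scaling. TMM factors, which set aside the most extreme genes, moved all ratios up by 0.76 and 0.84 on the log2 scale. Then 77 and 73 of the 86 stayed below 0, with medians of −0.93 and −0.73 beside −0.48 and −0.29 over all genes. Of the 86, 42 and 35 (48.8% and 40.7%) were then past 2-fold lower, beside 42.3% and 38.4% of all genes. The count of the Utx-labelled library thus stood near the share over all genes at that scaling. Without TMM factors, 0 of the 86 were past 2-fold higher in either library, beside 17.8% and 16.2% of all genes.

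Of the 8 Ndufaf genes, which are assembly factors, 6 were lowest in the Retnlg range in the control library and 5 in the other. Of the 89 genes with at least 100 UMIs, 73 and 69 were lowest there. The share of all genes lowest in that range was not counted, so neither count sets these genes apart. Ndufaf4 was lowest in the non-cycling Ltf range of the control library and the cycling Ltf range of the other. Ndufaf4, which helps to build the matrix arm of complex I, stood at 45.3 CPM in the Hlf/Mecom range, 64.4 in the Elane range and 1.79 in the Retnlg range of the control library, and at 63.0, 75.8 and 3.35 in the other. From the Elane to the Retnlg range that was 33.5-fold lower in the control library (log2 ratio −5.07, interval −6.08 to −4.39), resting on 13 UMIs in the Retnlg range. Ndufaf6 and Ndufaf5, which also act in complex I assembly, had control log2 ratios of −4.76 and −4.24, and the other library gave −5.73 and −3.40. They rested on 10 and 6 Retnlg UMIs in the control library (intervals −5.96 to −4.01 and −5.91 to −3.32). In the other library they rested on 6 and 14 UMIs (−7.41 to −4.83 and −4.38 to −2.72). The median of the 8 Ndufaf genes was −3.41 and −2.97. In the control library these genes had from 6 (Ndufaf5) to 94 (Ndufaf3) UMIs in the Retnlg range, apart from Ndufaf7 (179). Most thus met the minimum of 100 UMIs only through the Elane range, where they were higher, so their median is not ranked against other genes. Ndufaf7, an arginine methyltransferase for complex I, differed least in its set, with 23.4 and 24.6 CPM among control cells (log2 ratio 0.08, interval −0.18 to 0.32) and 21.5 and 17.4 CPM in the other library (−0.30, interval −0.56 to −0.05).

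In the control library the steepest after Ndufaf4, Ndufaf6, Cox6b2 and Ndufaf5 was Atp5g1, 1 of 3 genes for the same c-ring subunit of the ATP synthase. Atp5g1 had 252 UMIs in that Retnlg range, where those 4 genes had 13, 10, 10 and 6. Its interval (−4.27 to −3.90) overlapped those of Ndufaf6, Cox6b2 and Ndufaf5, so their order is not settled. Atp5g1 stood at 278 CPM in the Hlf/Mecom range, 586 in the Elane range and 34.6 in the Retnlg range of the control library, and at 335, 571 and 40.3 CPM in the other. Its Retnlg level was 16.9-fold below its Elane level in the control library (log2 ratio −4.08), and its Elane level was 2.11-fold above its Hlf/Mecom level, the highest such ratio among the 86. Cox6b2, a second isoform of a complex IV subunit known from testis, had a log2 ratio of −4.48 in the control library and −4.18 in the other. These rested on 10 and 38 UMIs in the Retnlg range.

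The genes with least difference between the Elane and the Retnlg range were, besides Ndufaf7, all of complex I. In the control library Ndufb7 had a log2 ratio of −0.21, Ndufs4 of −0.24, Ndufa3 of −0.25 and Ndufv3 of −0.30. In the other library these ratios were −0.12, −0.19, −0.06 and −0.24, and with TMM factors all 4 lay above 0 in both libraries. Single subunits of complex I kept nearly their share of the transcriptome while others of the same complex were far lower at the end. Ndufb5, for example, went from 349 to 39.2 CPM in the control library and from 338 to 43.4 CPM in the other. By complex, the control medians were −1.86 for complex I, −1.43 for complex II, −1.86 for complex III, −1.35 for complex IV and −1.86 for complex V, and the genes of a complex spread more widely than these medians.

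**Figure D2:**
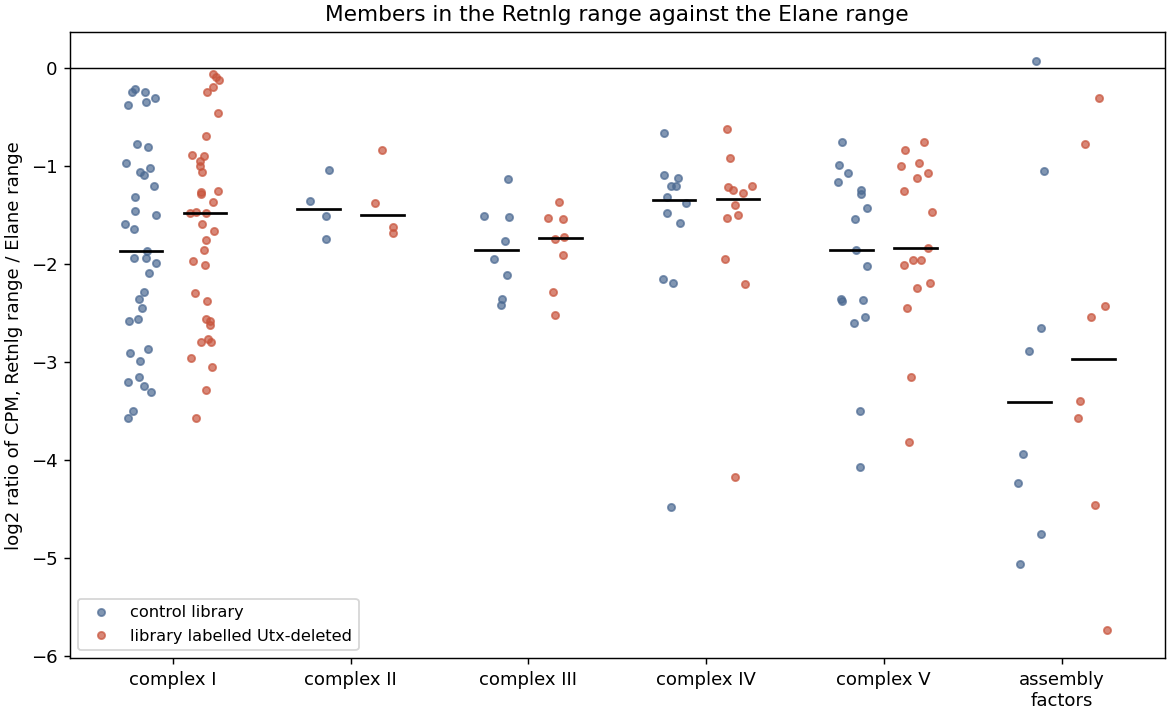
Log2 ratio of CPM in the Retnlg range over the Elane range for the 86 compared genes, by complex and library; each point is 1 gene and each bar is the median of its group. In the control library 85 of 86 points lie below 0. The median of the 8 assembly factors, −3.41, rests on genes with 6 to 94 UMIs in the Retnlg range, apart from Ndufaf7 (179).

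Along the whole course, 69 of the 89 genes with at least 100 UMIs peaked in the Elane range in the control library and 68 in the other, beside 17.7% and 15.4% of the 13558 genes with as many UMIs. For 65 and 64 of the 89 the CPM was lower at each of the steps from the Elane to the Retnlg range, beside 20.9% of all genes in each library. Between the Hlf/Mecom and the Elane range, 78 of 86 genes were higher in the control library and 76 of 86 in the other, with median log2 ratios of 0.52 and 0.38 beside −0.23 and −0.25 over all genes. Past 2-fold higher were 2 genes in the control library, Atp5g1 and Cox7b, beside 4.62% of all genes, and 1 in the other, Ndufa1, beside 6.03%. Past 2-fold lower were 0, beside 13.2% and 12% of all genes. With TMM factors the ratios of all genes moved up by 0.35 and 0.40, and the counts higher were 24 and 17, beside 9.03% and 10.5% of all genes.

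Cox7b, a small complex IV subunit, went from 134 CPM in the Hlf/Mecom range to 273 in the Elane range of the control library and from 199 to 351 CPM in the other. Uqcrq, of complex III, went from 107 to 210 and from 146 to 261 CPM, Ndufb5, of complex I, from 181 to 349 and from 191 to 338 CPM, and Cox5a, of complex IV, from 413 to 792 and from 411 to 730 CPM. Of the 8 genes lower in the Elane than in the Hlf/Mecom range of the control library, 3 had intervals below 0: Ndufaf7 (32.2 to 23.4 CPM), Cox7a2l, a factor that joins complexes III and IV (308 to 240 CPM), and Ndufs4 (160 to 137 CPM). The other library gave 26.3 to 21.5, 266 to 258 and 151 to 138 CPM for these genes, with intervals that held 0. Of the 10 genes lower in that library, 3 others had intervals below 0: Ndufaf5 (22.8 to 15.5 CPM), Cox6b2, a complex IV subunit best known from testis (82.3 to 69.4 CPM), and Sdha (131 to 113 CPM). With TMM factors Ndufs4, Cox6b2 and Sdha were higher in the Elane range in both libraries, and Cox7a2l and Ndufaf7 in the Utx-labelled one alone.

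The promoters of these genes can be read beside that shared course. NRF1, a transcription factor named for its action on respiratory genes, is known to bind a palindrome with GC-rich flanks around a central AT. RefSeq promoters of build GRCm38.p6 (250 bases before to 50 after a start site) were found for 75 of the 93 genes. The full palindrome, spelled GCGC, then AT, then GCGC, which reads the same on both strands, was in the promoters of 7 of the 75 genes (9.33%), in 1.05% of the 26950 other genes and in 2.29% of the 10195 other genes with at least 100 UMIs here. The form with a free centre, spelled GCGC, then NT, then GCGC on either strand, which includes the full one, was in 19 of 75 (25.3%), 5.13% and 11.3%. The YY1 letters ATGGCGGC were in 7 of 75 (9.33%, against 2.59% and 5.55%), CREB TGACGTCA, also a palindrome, in 4 (5.33%, against 2.02% and 3.46%), ETS CCGGAAGT in 5 (6.67%, against 4.30% and 9.23%) and ERR TCAAGGTCA in 2 (2.67%, against 0.460% and 0.304%). In all, 32 of the 75 genes held at least 1 of the 6 motifs.

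The 180 bases before the start of 5 of the 7 genes with the full palindrome, from complexes I, IV and V and an assembly factor, show where the letters lie. Each is written 5′ to 3′ on the strand of the gene, and capitals mark NRF1 letters (full, or with a free centre) and, in Ndufa11, CREB letters. Ndufaf4 lies on the + strand at chr4:24897903-24898082, with the palindrome starting 113 bases before the start.
Ndufaf4: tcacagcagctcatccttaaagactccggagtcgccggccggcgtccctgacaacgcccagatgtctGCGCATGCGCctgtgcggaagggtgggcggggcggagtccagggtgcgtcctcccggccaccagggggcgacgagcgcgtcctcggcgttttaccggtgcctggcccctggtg
Atp5k (complex V subunit e) lies on the − strand at chr5:108434400-108434579, with the palindrome at −50.
Atp5k: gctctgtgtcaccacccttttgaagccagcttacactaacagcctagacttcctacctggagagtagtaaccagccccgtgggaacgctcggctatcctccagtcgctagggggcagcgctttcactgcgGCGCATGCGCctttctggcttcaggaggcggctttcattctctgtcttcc
Cox6a1 (complex IV) lies on the − strand at chr5:115348959-115349138, with the palindrome at −162 and a free-centre form after it.
Cox6a1: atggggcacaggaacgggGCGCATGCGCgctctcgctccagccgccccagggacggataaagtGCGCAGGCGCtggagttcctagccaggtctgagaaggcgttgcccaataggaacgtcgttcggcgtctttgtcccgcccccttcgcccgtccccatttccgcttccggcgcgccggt
Atp5g2 (complex V, c-ring) lies on the − strand at chr15:102671048-102671227, with the palindrome at −42.
Atp5g2: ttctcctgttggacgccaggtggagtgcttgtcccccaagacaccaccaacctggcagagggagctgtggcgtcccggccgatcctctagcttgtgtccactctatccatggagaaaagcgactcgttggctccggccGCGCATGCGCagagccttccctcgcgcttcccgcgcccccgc
Ndufa11 (complex I) lies on the + strand at chr17:56717582-56717761, with the palindrome at −60.
Ndufa11: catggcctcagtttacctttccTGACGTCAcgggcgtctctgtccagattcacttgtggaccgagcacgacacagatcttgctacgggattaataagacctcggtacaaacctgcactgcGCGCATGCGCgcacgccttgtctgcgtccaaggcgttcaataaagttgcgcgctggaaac
From the Elane to the Retnlg range of the control library, the log2 ratios of these 5 genes were −5.07 for Ndufaf4, −3.50 for Atp5g2, −2.09 for Ndufa11, −1.16 for Atp5k and −0.66 for Cox6a1. The 19 genes with at least the free-centre form had a median log2 ratio of −1.59 between those ranges in the control library (from −5.07 to −0.66) and the 53 compared genes without it −1.86 (from −4.48 to 0.08). A match of letters is a description of the sequence and does not show a bound site.

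Between the libraries, the 93 genes took 1.36% of gene UMIs over all control cells and 1.48% in the Utx-labelled library, a log2 ratio of 0.12. The hashtag 1 and 2 cells gave 1.40% and 1.34% (control) against 1.44% and 1.55%. The groups did not overlap, but the hashtag 1 cells alone gave a ratio of 0.04 and the hashtag 2 cells 0.22. With TMM factors, which moved all genes up by 0.12, the ratio was 0.25. Gene by gene, without TMM factors, 45 of the 89 genes with at least 100 UMIs were higher and 44 lower, beside 29.5% of all genes higher. Their median log2 ratio was 0.00, beside −0.11 over all genes, so the summed gap was not shared by all of them. At the TMM scaling 68 were higher and 21 lower, with a median of 0.13 beside 0.01. The libraries differ in how many cells each range holds, so the ranges were compared one by one.

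The share was higher in the Utx-labelled library in 6 of the 7 ranges, and in those 6 the hashtag populations of the libraries did not overlap. The log2 ratios were 0.22 in the Hlf/Mecom range (hashtags 1.42% and 1.43% against 1.63% and 1.66%), 0.12 in the Elane range (2.02% and 2.04% against 2.24% and 2.17%) and 0.25 in the Retnlg range (0.643% and 0.622% against 0.740% and 0.760%). They were 0.11 and 0.18 in the cycling and non-cycling Ltf ranges. With only transcripts from 700 bases in both the gene set and the total, the Elane ratio was 0.026, the cycling Ltf ratio 0.047 and the Hlf/Mecom ratio 0.13. In the Flt3/Cd34 range the ratio was −0.01 and the populations overlapped (1.46% and 1.46% against 1.35% and 1.51%), and 6 of 16 alternative settings turned its sign.

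The widest gap, 0.32 in the Fcnb/Chil3 range (1.43% and 1.35% against 1.73% and 1.60%), is between mixtures of cells that differ. Cytosolic ribosomal protein genes took 9.48% of UMIs there in the control library and 14.1% in the other, 86.8% and 61.9% of the cells were cycling, and the median Fcnb level was 20.5 and 3.16 per 10000 UMIs. The ratio was 0.09 with the marker minimums doubled, 0.25 in cells with 1 hashtag only and 0.16 with TMM factors, which moved all genes there by −0.16. In the Retnlg range, the median Chil3 level was 15.9 and 32.8 per 10000 UMIs and the median UMIs per cell were 5846 and 7339, so those cells of the Utx-labelled library carried more of an earlier marker. With cells of both libraries weighted to the same Chil3 bins the ratio in the Retnlg range was 0.24, and with the same UMI bins 0.18. The part of these other differences in the gap was not tested beyond that. The Elane and Hlf/Mecom ranges were not equal mixtures either. In the Elane range 46.9% and 37.7% of the cells were cycling, ribosomal protein genes took 20.4% and 22.2% of UMIs, and the median level of the Elane marker set was 158 and 198 per 10000 UMIs. For the Hlf/Mecom range the last 2 values were 17.3% and 19.0%, and 3.58 and 1.31 per 10000 UMIs.

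The Elane, Hlf/Mecom and Fcnb/Chil3 ranges showed the gap in cycling and in non-cycling cells. Cycling cells of the Elane range had a share of 2.03% in the control library and 2.18% in the other, and non-cycling cells 2.02% and 2.22%. In the Hlf/Mecom range the values were 1.48% and 1.69% for cycling cells (156 and 37 cells). For its non-cycling cells (154 and 39) they were 1.31% and 1.59%. The Fcnb/Chil3 range held 26 and 32 non-cycling cells. The Flt3/Cd34 range split: its cycling cells (70 and 18) had 1.53% and 1.63%, and its non-cycling cells (113 and 44) 1.38% and 1.30%. The counting intervals were apart in both, but they leave out the spread between cells, and 18 cells are few. The F13a1/Irf8 range of monocyte progenitors (291 and 663 cells), counted apart from the ranges above, had 2.06% and 2.25%. Its cells also carried the Elane marker set, with medians of 111 (control) and 146 against 158 and 198 in the Elane range. These medians are on the marker scale given above, so this range is not independent of the Elane range. Cells with B-cell progenitor markers (76 and 33 cells) had 1.89% and 1.91%, with an interval that held 0 (log2 ratio 0.01, and −0.07 with TMM factors). In the F13a1/Irf8 range 5 of 87 genes were past 1.5-fold higher, beside 2.99% of all genes, and 1, Cox6a2, was lower, beside 4.63%.

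The mitochondrially encoded share did not follow. It was lower in the Utx-labelled library in the Hlf/Mecom range (3.06% against 2.79%) and the Flt3/Cd34 range (2.72% against 2.35%) and higher in the Elane (2.99% against 3.19%) and Retnlg ranges (0.381% against 0.465%). It was higher in 4 of 7 ranges in all, and in 5 with TMM factors, the cycling Ltf range turning. The Retnlg gap rests mainly on hashtag 2 cells, since the log2 ratio was 0.14 in hashtag 1 and 0.55 in hashtag 2 cells, and it was 0.09 with the same UMI bins. The Elane-range ratio was 0.09, and −0.04 without a limit on the mitochondrial share of a cell.

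The complexes moved unequally between the libraries. The summed share of complex III was higher in the Utx-labelled library in 7 of 7 ranges, with log2 ratios from 0.07 to 0.47. Its Elane-range share was 0.163% and 0.199% of UMIs. The sum of complex IV was higher in 7 of 7 (0.08 to 0.31; 0.456% and 0.527% in the Elane range), complex I in 7 of 7 (0.02 to 0.31; 0.689% and 0.741%) and complex V in 6 of 7 (−0.11 to 0.30; 0.641% and 0.660%). With TMM factors complex I turned to −0.02 in the Flt3/Cd34 range, and no other direction given here for complexes I, III, IV and V differed. The sum of the Ndufaf genes was higher in 7 of 7 (0.08 to 0.51), and the hashtag populations were apart in 5 of those. Gene by gene the counts were more even in some ranges. Of 37 complex I genes 15 were higher and 22 lower in the Flt3/Cd34 range (median log2 ratio −0.06), and 18 were higher and 19 lower among cycling Ltf cells (0.00). In the Elane range 9 of 17 complex V genes were higher (median 0.01), as were 4 of the 8 Ndufaf genes (−0.02). Ndufaf7 was lower in 5 of the 6 ranges where it could be compared and Ndufaf6 in 4 of 5.

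**Figure D3:**
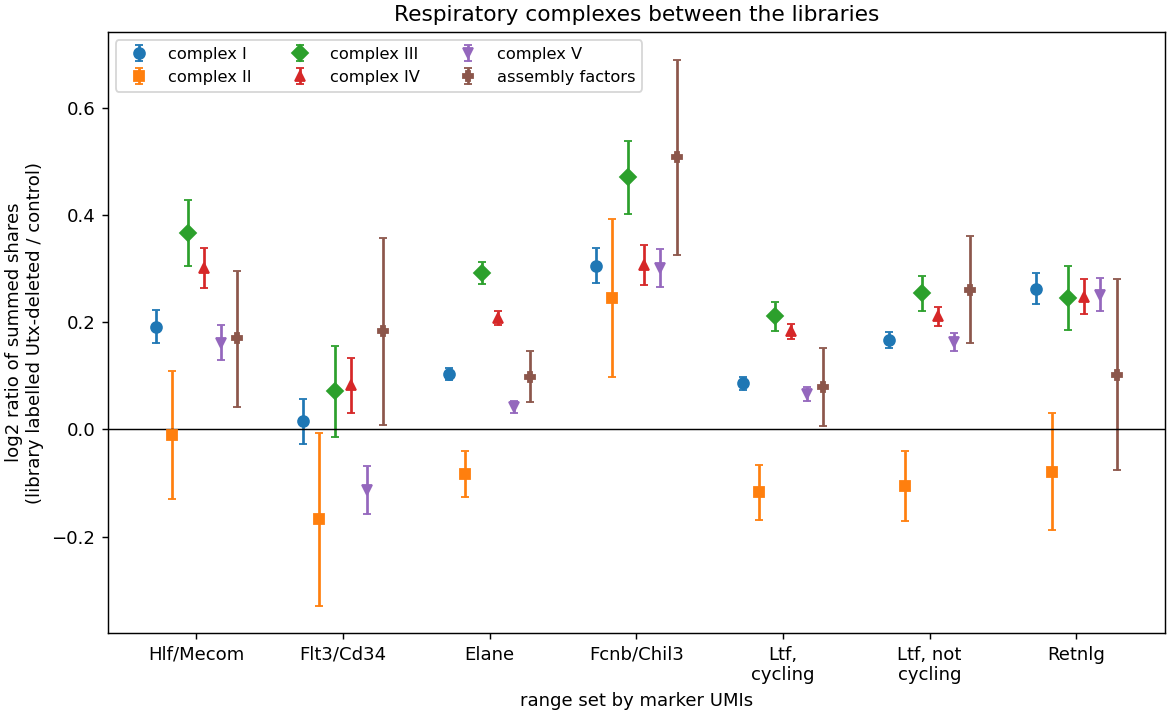
Log2 ratio of the summed UMI share of each complex, library labelled Utx-deleted over control, by marker range; bars are 95% counting intervals. Complex III lies above 0 in 7 of 7 ranges and complex II below 0 in 6 of 7.

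The complex II share was lower in the Utx-labelled library in 6 of 7 ranges, also with TMM factors, with log2 ratios from −0.17 to −0.01, and higher in the Fcnb/Chil3 range alone (0.25). Of the 6 ratios, 4 had intervals below 0, and those of the Hlf/Mecom and Retnlg ranges held 0. In the Hlf/Mecom range 3 of the 4 Sdh genes were higher, with a median log2 ratio of 0.04. In the Elane range it took 0.0432% of control UMIs and 0.0407% of the others. Sdhb, the iron-sulfur subunit, stood there at 80.5 and 88.2 CPM in the hashtag populations of the control library and 73.7 and 69.2 in the other (log2 ratio −0.24, interval −0.34 to −0.14). Sdha, the flavoprotein, was at 120 and 113 CPM, Sdhc at 74.2 and 73.2 CPM and Sdhd at 154 and 150 CPM, and the counting intervals of these 3 held 0. No Sdh gene was past 1.5-fold in any range. The annotated transcripts of Sdha, Sdhb, Sdhc and Sdhd are of 2900, 1142, 3171 and 1231 bases.

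Counted gene by gene over the 7 ranges, 40 of 589 gene and range pairs were past 1.5-fold higher in the Utx-labelled library and 0 were past 1.5-fold lower. These counts read against all genes as follows. In the Hlf/Mecom range 5 of 86 genes were past 1.5-fold higher (all genes, 3.99%), in the Flt3/Cd34 range 1 of 84 (4.58%), in the Elane range 2 of 86 (2.81%) and in the Fcnb/Chil3 range 17 of 82 (13.6%). In the cycling and non-cycling Ltf ranges it was 0 of 86 (3.41%) and 4 of 85 (3.72%), and in the Retnlg range 11 of 80 (5.4%). Past 1.5-fold lower were 0 genes in each range, where all genes gave 7.27%, 5.31%, 4.87%, 9.04%, 5.7%, 6.54% and 8.97% in the same order. With TMM factors 35 pairs were higher and 0 lower, and the Fcnb/Chil3 count was 7 of 82 (all genes, 8.84%) against 12 of 80 (5.96%) in the Retnlg range. The Hlf/Mecom, Flt3/Cd34 and Elane ranges then gave 4 of 86 (3.40%), 1 of 84 (3.91%) and 4 of 86 (3.18%). For the cycling and non-cycling Ltf ranges it was 1 of 86 (3.87%) and 6 of 85 (4.65%). The Fcnb/Chil3 count thus stood near the share over all genes at that scaling.

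The count of genes higher by any amount differed between the ranges. In the Hlf/Mecom range it was 73 of 86, beside 49.0% of all genes, with a median log2 ratio of 0.22 beside −0.01 over all genes. The Retnlg range gave 63 of 80, beside 47.4%, with a median of 0.18 beside −0.02. For the Fcnb/Chil3 range it was 70 of 82, beside 51.5%. The Elane range gave 50 of 86, beside 42.9%, with 0.04 beside −0.04. The cycling and non-cycling Ltf ranges gave 48 of 86 and 58 of 85, beside 39.9% and 43.3%. In the Flt3/Cd34 range it was 41 of 84, beside 49.2%, with −0.01 beside −0.01.

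Cox6b2 was the gene with the widest difference in the early ranges. In the Elane range it stood at 34.7 and 33.3 CPM in the hashtag populations of the control library and at 70.4 and 69.4 in the other, so the values of the libraries lay far apart and those within a library close together. The ratio was 2.06-fold (log2 1.04, interval 0.91 to 1.17). In the Hlf/Mecom range it was 2.25-fold (41.4 and 31.3 CPM against 114 and 69.6), in the Flt3/Cd34 range 1.94-fold (47.0 against 90.8 CPM) and in the F13a1/Irf8 range 2.41-fold (24.6 and 25.1 against 57.0 and 64.1 CPM).

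Later in the course Cox6b2 was low in both libraries. It had 1.41-fold and 1.42-fold ratios in the cycling and non-cycling Ltf ranges. In the Retnlg range it had 10 and 38 UMIs, too few to compare the libraries there under the minimum of 100 UMIs. Cells with Pf4, Cavin2 or Car1, markers of platelet and red cell precursors, had 85.2 CPM in the control library and 101 in the other. Cox6b1, the common form of the same subunit, stood at 225 and 269 CPM over all cells. No annotated protein-coding gene overlaps Cox6b2.

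Ndufa1, an X-linked membrane-arm subunit of complex I, was past 1.5-fold higher in the Elane range as well, at 108 and 109 CPM in the hashtag populations of the control library and 176 and 171 in the other (1.60-fold, log2 0.68, interval 0.60 to 0.75). It was higher in all 7 ranges, and in the Retnlg range it stood at 78.5 and 86.7 CPM against 130 and 123. Past 1.5-fold higher in the Hlf/Mecom range, besides Cox6b2, were Atp5mpl, a small protein bound to the ATP synthase (1.62-fold), Uqcr10 and Uqcr11, small subunits of complex III (1.60-fold and 1.58-fold), and Cox7c (1.52-fold). With TMM factors, which moved all genes there by −0.03, Cox7c fell below 1.5-fold and the other 4 stayed past it.

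In the Retnlg range the genes past 1.5-fold higher were Ndufb2, Ndufc1, Atp5e, Ndufa11, Atp5md, Cox8a, Ndufa3, Ndufa2, Ndufa13, Ndufa1 and Ndufc2. Atp5e, the epsilon subunit in the central stalk of the ATP synthase, stood at 154 and 147 CPM in the hashtag populations of the control library and 260 and 256 in the other (1.70-fold). Cox8a, a small complex IV subunit, stood at 217 and 223 against 353 and 355 CPM (1.58-fold). Ndufc1 and Ndufb2, small complex I subunits, had 23.5 against 44.8 CPM and 14.6 against 28.0 CPM. An annotated protein-coding gene overlaps Ndufb2 on its own strand, so reads could be counted for either gene, as for Ndufa13, Cox4i1, Ndufb9, Atp5o and Ndufb8.

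In the Fcnb/Chil3 range, where the cell mixtures differ as given above, 17 genes were past 1.5-fold higher, and 7 with TMM factors. The 5 highest were Ndufaf4 (44 and 68 UMIs), Cox6b2, Atp5mpl, Uqcr11 and Atp5g1 (193 against 360 CPM). The hashtag populations had 206 and 162 against 293 and 295 CPM for Atp5g1, so its 360 CPM lay above both. In hashtag 1 cells Ndufaf4, Cox6b2 and Atp5g1 had log2 ratios of 0.52, 0.42 and 0.51, under 1.5-fold. Their hashtag 2 ratios were 2.62, 1.69 and 0.86, and Atp5mpl and Uqcr11 were past 1.5-fold in both hashtags. In the non-cycling Ltf range, Atp5e, Ndufa3, Ndufa1 and Ndufa5 were past 1.5-fold higher, by 1.58-fold, 1.55-fold, 1.52-fold and 1.51-fold.

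Across the ranges, 78 genes could be compared in all 7. Of these, 31 were higher in the Utx-labelled library in 7 of 7 ranges and 2 were lower in 7 of 7, beside 6.34% and 8.91% of the 5015 genes of any kind compared in all 7. The 2 lower ones were Atp5f1, the b subunit of the stator of the ATP synthase, and Cox5a, a complex IV subunit. Atp5f1 stood at 479 and 474 CPM in the hashtag populations of the control library in the Elane range and at 403 and 385 in the other, and its log2 ratios ran from −0.33 to −0.04. Cox5a stood at 796 and 783 against 748 and 704 CPM, with ratios from −0.36 to −0.01. Both were under 1.5-fold in each range. With TMM factors 27 of the 78 were higher in all 7 ranges and 3 were lower, Cox4i1 being the third, beside 5.74% and 9.39% of all genes.

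The count of genes higher in all 7 ranges differed with transcript length. Of the 30 compared genes with an annotated principal transcript under 700 bases, 20 were higher in all 7 ranges, and of the 48 from 700 bases it was 11 (17 and 10 with TMM factors). Of the 2 genes lower in all 7, Cox5a has an annotated transcript of 645 bases and Atp5f1 of 1604. The median log2 ratio over ranges was 0.28 for the shorter and 0.00 for the longer genes. Summed, the 37 shorter genes took 0.897% of UMIs in the Elane range of the control library and 1.08% in the other (log2 ratio 0.27), and 0.319% against 0.410% in the Retnlg range (0.36). Their ratio was above 0 in 7 of 7 ranges (0.12 to 0.38). The 56 longer genes had ratios from −0.10 to 0.26, above 0 in 4 of 7 ranges. With TMM factors the longer genes were above 0 in 6 of 7 ranges, −0.14 in the Flt3/Cd34 range and up to 0.14 in the Retnlg range.

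Genes outside oxidative phosphorylation also had higher ratios at short lengths. In the Elane range the 7 oxidative phosphorylation genes under 500 bases had a median log2 ratio of 0.49 and the 20 of 1500 bases or more −0.09, while the other genes under 500 bases had a median log2 ratio of 0.20 (140 genes, 75.7% higher) and those of 1500 bases or more −0.04 (8749 genes, 42.4% higher). The 9 cytosolic ribosomal protein genes under 500 bases had a median of 0.50. In the Retnlg range the genes under 500 bases gave 0.45 (oxidative phosphorylation), 0.23 (other genes) and 0.45 (ribosomal proteins), and those of 1500 bases or more 0.08, −0.05 and 0.19. Among the mitochondrially encoded genes, mt-Atp8, mt-Nd4l, mt-Nd3 and mt-Nd6, of 204, 297, 348 and 519 bases, were higher in 7 of 7 ranges, while mt-Co1, of 1545 bases, was higher in 1 of 7 (with TMM factors, 2 of 7). The 3 shortest summed had log2 ratios from 0.50 to 1.24 and the other 10 from −0.22 to 0.27.

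Transcripts of mt-Atp8 and mt-Nd4l are known to be joined to those of mt-Atp6 and mt-Nd4 in 1 molecule each. Here mt-Atp6 was higher in 4 of 7 ranges (5 with TMM factors) and mt-Nd4 in 5 of 7, with medians over ranges of 0.06 and 0.11 beside 0.46 for mt-Atp8 and 0.85 for mt-Nd4l. The part of transcript length in the difference between the libraries was not tested further; the annotated length need not be that of the transcript made in these cells, and Ndufb2 and Atp5g1 are annotated at 4371 and 4715 bases.

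**Figure D4:**
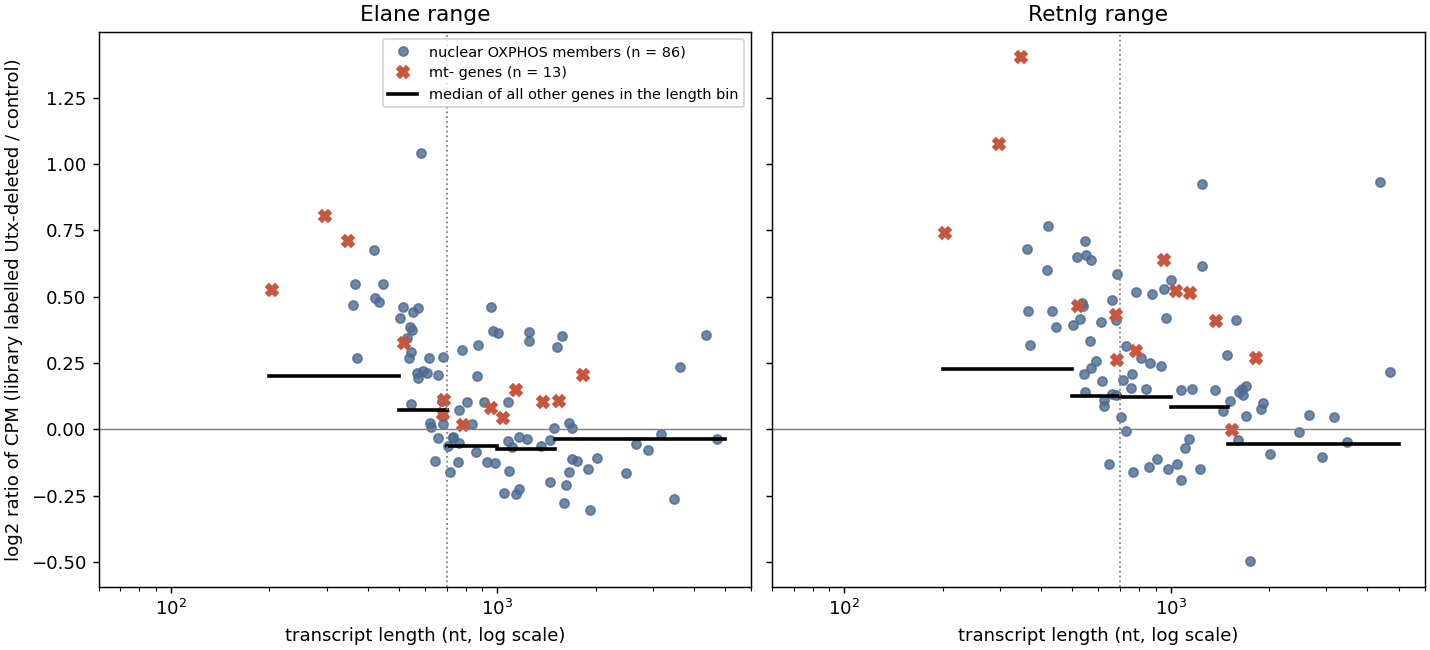
Log2 ratio of CPM, library labelled Utx-deleted over control, against annotated transcript length on a log axis, in the Elane (left) and Retnlg (right) ranges; circles are oxidative phosphorylation genes with at least 100 UMIs, crosses the 13 mitochondrially encoded genes and black lines the median of all other genes in a length bin. Shorter transcripts lie higher in both panels, with single exceptions such as Ndufb2 at 4371 bases, and in the Elane range the median of other genes is 0.20 under 500 bases and −0.04 from 1500 bases.

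Within the Ltf and Retnlg cells, the share could be followed along Retnlg itself, which is made late. Over 6 bins of rising Retnlg it went from 1.01% to 0.557% in the control library and from 1.10% to 0.658% in the other, lower at each step in both. The library labelled Utx-deleted was higher in each bin. The 56 genes from 700 bases went from 0.519% to 0.283% and from 0.515% to 0.300%. They were lower in the Utx-labelled library in the first 2 bins and higher in the last 4. The median Chil3 level was higher in that library in each bin (5.45 against 16.0 per 10000 UMIs in the top one), so equal Retnlg did not make the cells equal.

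**Figure D5:**
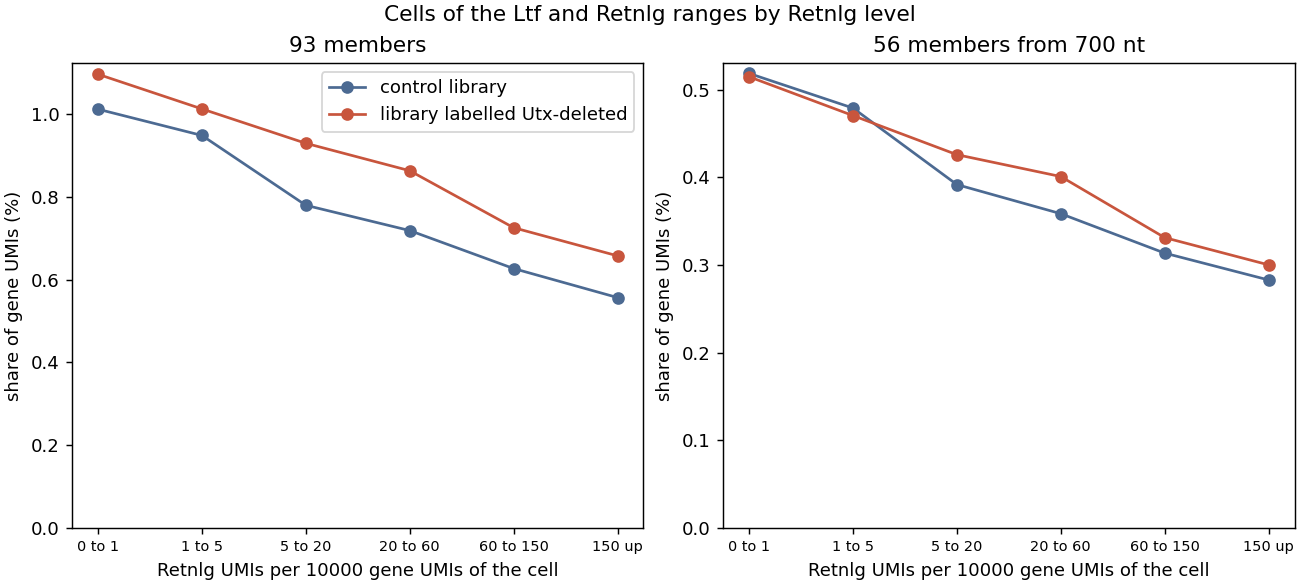
Share of gene UMIs in percent along 6 bins of Retnlg UMIs per 10000 UMIs of a cell, for the 93 genes (left) and the 56 genes with transcripts from 700 bases (right), in the cells of the Ltf and Retnlg ranges. Both libraries are lower at each step, from 1.01% to 0.557% and from 1.10% to 0.658% on the left, and on the right the lines cross between the second and the third bin.

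Unlike Cox6b2, the second isoforms Cox6a2, Cox4i2 and Cox7a1 of complex IV subunits, known from muscle or lung, were rare. Cox6a2, the muscle form beside Cox6a1, had 140 UMIs among control cells and 14 in the other library. In the control library 84.3% of its UMIs lay in 20 barcodes and 70.7% in the F13a1/Irf8 range, where it stood at 10.9 and 0.377 CPM, so a few cells set this difference. Cox4i2, the form beside Cox4i1 known from lung, had 78 and 25 UMIs, 39 and 11 of them in the F13a1/Irf8 range. Cox7a1, the muscle form beside Cox7a2, had 42 and 81 UMIs in 42 and 75 barcodes. These 3 and Cox6b2 and Ndufa1 are the 5 genes past 1.5-fold over all cells: 3 higher (all genes, 3.17%) and 2 lower (10.6%). With TMM factors 11 were higher (all genes, 4.45%) and 2 lower (8.56%). The 4 genes under 20 UMIs, of which 2 had 0, are all such second forms.

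Other genes of the same metabolism did not share 1 course. From the Elane to the Retnlg range of the control library, where 53.5% of all genes were past 2-fold lower with a median log2 ratio of −1.24, 13 of 17 genes of the citric acid cycle were past 2-fold lower and 1 higher (median −1.89). Past 2-fold lower were also 72 of 78 genes of the mitochondrial ribosome (−2.89), 26 of 29 assembly factors outside the 93 genes (−2.01) and 4 of 5 electron carriers such as Cycs (−2.72). In the Retnlg range, with both libraries summed, 57 of 78 ribosome genes and 15 of 30 of these assembly factors met the UMI minimum. Many of the rest thus met it only through the Elane range, where they were higher. The ribosome and assembly factor medians are therefore not ranked against all genes. Of 17 glycolysis genes 5 were past 2-fold lower and 1 higher, with a median of 0.14. The TMM shift of 0.76 given above would move each of these medians up alike. Between the libraries, the summed share of the glycolysis genes was lower in the Utx-labelled library in 7 of 7 ranges, but in the Hlf/Mecom range the summed ratio was 0.00 with an interval that held 0, and there 11 of 16 genes were higher (median 0.04), 1 past 1.5-fold higher and 2 lower. The Elane range had 0 of 17 past 1.5-fold and a median of −0.23. The summed share of the citric acid cycle genes was lower in 5 of 7 ranges, with intervals below 0 in 4, while the median over its genes was above 0 in 4 ranges, the Hlf/Mecom range with 12 of 17 genes higher among them. That of the mitochondrial ribosome was higher in 4 and lower in 3. The sum of the assembly factors outside the 93 genes was higher in 7 of 7, from 0.00 to 0.45, while 10 of 20 of these genes were higher in the Flt3/Cd34 range and 14 of 28 in the cycling Ltf range. It was higher in 6 of 7 with TMM factors, which left the glycolysis and citric acid cycle counts as they were and put the mitochondrial ribosome higher in 5.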

How the data were processed

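CITE-seq libraries (10x 3′ v3.1, 1 per group) were read from the count matrices that the authors deposited: raw UMI counts per gene and barcode, made with Cell Ranger 7.1.0 per the file headers and mm10 per the submitters' processing notes. The annotation, the cell calling and the treatment of reads that match several genes are not given in the sources used here, and strand use is not stated. The 15 antibody tags were not used beyond the hashtags. Python 3.11.15, scanpy 1.11.5 and scipy 1.17.1 were used.

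Kept were barcodes with at least 500 genes and under 10% mitochondrially encoded UMIs, which left out 349 control and 214 other barcodes. Scrublet's automatic threshold called 1 and 0 doublets and so did not work. The 6% of barcodes with the highest scores were left out instead (467 and 463). A hashtag was called from 100 UMIs with 5 times the other hashtag. The hashtags gave 3253 and 3506 control cells and 3163 and 3553 cells of the other library, and 204 and 451 carried both.

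Counts were summed per library and range. The minimums were 2 per 10000 UMIs for Hlf with Mecom, 20 for Elane with Prtn3 and Mpo, 20 for Fcnb with Chil3, 40 for Ltf and 20 for Retnlg, and 4 for Top2a with Mki67. They were set after marker levels had been seen. Genes were compared with at least 100 UMIs, as log2 ratios of CPM with 1 UMI added, and called past 1.5-fold between libraries and 2-fold between ranges. Transcript lengths are those of APPRIS principal transcripts of GENCODE M21. TMM factors came from edgeR 4.0.16.

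The genes and lists were chosen with earlier results of these data known. Named genes are the 10 with most UMIs, up to 5 at each end of a comparison with the same sign in both hashtags, the Sdh genes, Atpif1 and second isoforms; other genes named were chosen after their values were seen. The fold calls and the counting intervals were tested on simulated counts. The cell filter, doublet removal, ranges, hashtag calls and TMM factors were not tested in this way. Alternatives changed the cell filter, doublets, hashtags, denominator, range minimums, weighting, scaling, count minimum, fold and depth.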

Additional observations from a re-analysis of the deposited data

How the results depend on the processing

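No paired analysis was possible because each group is 1 library. Of 335 alternative values, 162 stayed within counting error or 1.5 times the reported count, 155 moved beyond that and 18 changed sign. Over all cells the log2 ratio of the nuclear share (0.12) was 0.117 with at least 1000 genes and under 5% mitochondrial UMIs, 0.126 without a mitochondrial limit, 0.043 in hashtag 1, 0.216 in hashtag 2, 0.136 in cells with 1 hashtag, 0.196 without granule and S100 genes in the total, 0.157 as a mean over cells, 0.052 with genes and total from 700 bases, 0.185 in equal Chil3 bins and 0.115 in equal UMI bins, so it was above 0 in each. Equal bins, lengths from 700 bases and cells with 1 hashtag were chosen after seeing the data.

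Sign changes occurred in 5 of the 14 ratios by range. In the Flt3/Cd34 range the nuclear ratio was 0.0073 without the mitochondrial limit, 0.025 without doublet removal, 0.046 in hashtag 2, 0.027 with doubled minimums, 0.049 with whole marker lists and 0.0060 in equal UMI bins. The mitochondrially encoded ratio was −0.044 in the Elane range without the limit, and −0.19 and −0.066 in the Fcnb/Chil3 range with doubled minimums and whole lists. In the cycling Ltf range it was 0.0065 with the stricter filter, 0.0060 without doublet removal, 0.066 without granule genes, 0.024 with minimums halved, 0.051 doubled, 0.12 with whole lists and 0.056 in equal Chil3 bins. In the non-cycling Ltf range it was −0.027 in hashtag 1 and −0.091 as a mean over cells. The causes were not tested.

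The count of gene and range pairs higher (40) was 186 at a laxer fold limit and 5 at 2-fold. The count lower (0) was 1 in hashtag 1 and with minimums halved or doubled, 2 in hashtag 2, with whole lists and at 20 UMIs, 5 in cells thinned to 2000 UMIs and 12 at the laxer fold limit. The share of all genes called under these alternatives was not counted, so these counts of pairs do not set the genes apart. With TMM factors, 42 and 35 genes were past 2-fold lower from the Elane to the Retnlg range, beside 42.3% and 38.4% of all genes. From the Hlf/Mecom to the Elane range, 24 and 17 were past 2-fold higher, beside 9.03% and 10.5% of all genes. The summed ratio from the Elane to the Retnlg range was −1.26 and −1.03 without granule genes, −2.01 and −1.92 without mitochondrially encoded and ribosomal protein genes, −1.50 and −1.39 with minimums halved and −1.79 and −1.67 doubled. From the Hlf/Mecom to the Elane range it was 0.55 and 0.46, 0.57 and 0.49, and 0.50 and 0.38 under the first 3 of these, and 0.58 with minimums doubled in the control library. With 1 library per group, depth limits only counting error, and the spread between animals was not measured.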
